A study of Caenorhabditis elegans with 32 samples.

Results

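The comparison set 4 lysate libraries of the lotr-1 deletion strain, called ΔLOTR-1 here, against 4 lysate libraries of its wild-type control, 8 of the 32 libraries of the study. The libraries were taken by the strain, fraction and replicate number in their names, and same-numbered libraries of both strains were treated as pairs. All 32 libraries came from whole Caenorhabditis elegans at day 1 of adulthood, as synchronized hermaphrodites grown at 20 C on OP50 bacteria. The study holds 4 strains that differ at lotr-1, each with 4 replicates and 2 fractions, and the remaining lysates of ΔLOTUS and ΔTudor were used to estimate the spread and for direct tests between deletions.

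The wild type was strain DUP167, whose allele sam85 places 3xFLAG::gfp before lotr-1, so the control carries a tag on the protein and is not an untagged worm. ΔLOTR-1 was strain DUP207, allele sam117, which the study describes as an in-frame deletion of the gene; its genotype label also shows the 3xFLAG::gfp tag. ΔLOTUS (strain DUP217, allele sam113) and ΔTudor (strain DUP185, allele sam102) lack 1 domain each. Each genotype is held by 1 strain, so the deletion and any other difference between the strains cannot be told apart. Lysates were whole-animal extracts, so fewer cells of a type and less RNA per cell cannot be told apart in any of the values below.

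LOTR-1 carries a LOTUS and a Tudor domain and belongs to the germ granules. It is found with the helicase ZNFX-1 and the Argonaute WAGO-4 in Z granules, a zone at the outer face of germ cell nuclei next to P granules. Argonautes there carry small RNAs made by RNA-dependent RNA polymerases, the 22G-RNAs, which silence some germ line transcripts and pass silencing to the offspring. The comparison asks which steady-state mRNAs differ between the strain with the lotr-1 deletion and its control; which stretch of the gene sam117 removes is not known here.

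Values are CPM, each gene's counts scaled to a fixed library total, after TMM scaling within the lysates. The wild-type lysates held 34.9, 37.3, 34 and 37.3 M counts and the ΔLOTR-1 lysates 31.6, 34.4, 36.5 and 34 M. The replicate number dominated the data: it explained 98.43% of the first principal component of the 16 lysates, which held 89.57% of the variance, against 0.9936% for the strain. Oocyte and eggshell mRNAs took 2.45%, 2.47%, 1.14% and 0.567% of all counts across wild-type lysates 1 to 4 and 2.38%, 2.48%, 1.32% and 0.507% in ΔLOTR-1. Body-shape cuticle collagens, which are made around moults, took 0.0151%, 0.0155%, 0.341% and 0.841% in the wild type and 0.0165%, 0.0123%, 0.207% and 0.740% in ΔLOTR-1. Libraries 3 and 4 of both strains thus stood apart from libraries 1 and 2, and every test below has the replicate number as a block unless said otherwise.

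The targeted gene was read first. lotr-1 (WBGene00008385, chromosome I) measured 345, 379, 230 and 123.2 CPM in wild-type lysates 1 to 4 and 88.1, 89.6, 49.2 and 31.8 CPM in ΔLOTR-1. Every ΔLOTR-1 library was below every wild-type library, at 64.7 ± 28.8 CPM against 269.5 ± 116.5 CPM (SD, n = 4). The log2 fold change was -2.06 (SE 0.10, adjusted p = 2.5e-08), and the transcript was lower without being absent. In the ΔLOTUS and ΔTudor lysates the gene stood at 256 ± 76.7 and 255 ± 107.6 CPM, and both differed from ΔLOTR-1, by 2.06 (SE 0.10, adjusted p = 4.8e-08) and 1.98 (SE 0.10, adjusted p = 1.6e-07) on the log2 scale. In the polysome fraction of the same lysates lotr-1 was at 69.2 ± 31.3 CPM for the wild type and at 75.2 ± 33.1 CPM for ΔLOTR-1, a log2 difference of 0.12 (SE 0.11, adjusted p = 0.83), so the polysome libraries give no check of the label. The stretch of the transcript that was counted is not known here. Of the neighbouring genes, zhp-2 had a log2 fold change of -0.08 (SE 0.07, adjusted p = 0.53), and cdc-5L, which encodes a splicing factor, rose by 0.23 (SE 0.06, adjusted p = 0.044), a call that was lost in each of the 8 fits that left out 1 library.

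Of 15939 genes tested, 1246 (7.82%) were called at an adjusted p under 0.05, 392 (2.46%) of them higher in ΔLOTR-1 and 854 (5.36%) lower. The rises were larger than the falls: the median log2 fold change was 0.67 among genes called higher and -0.30 among genes called lower, beside 0.01 for all genes tested. Changes of at least 2-fold numbered 157 (0.985%), with 113 higher (0.709%) and 44 lower (0.276%), and 30 of these had a mean under 1 CPM in both groups. By contrast 770 of the 854 falls were smaller than 1.5-fold. The split depended on the values used: in the table adjusted by the authors, tested with limma, 83.7% of 1900 calls were higher, against 31.5% with edgeR, and with no filter on low counts 57.9% of 523 were. All 4 pairs moved the same way in 1215 of the 1246 called genes. The test with the replicate block favours such genes, so this count is no separate support. No share over all genes is given for it. The 4 values of each group did not overlap in 304 of the called genes. Over all genes tested, the groups did not overlap in 440 (2.76%).

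**Figure D1:**
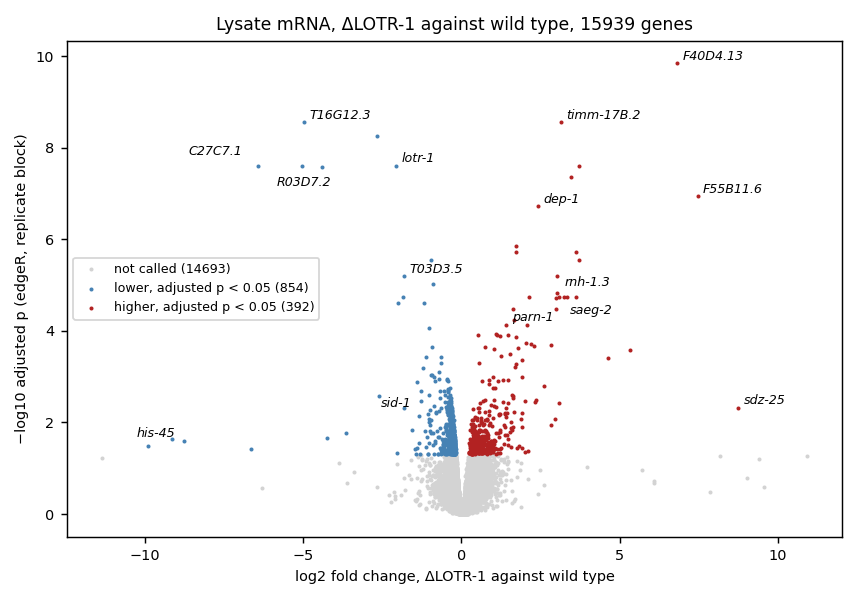
Each point is 1 of the 15939 genes tested in the lysates, with the log2 fold change of ΔLOTR-1 against wild type on the x axis and −log10 of the adjusted p on the y axis; red points were called higher (392) and blue points lower (854). The farthest points are single genes on both sides, among them F40D4.13 at 6.82 and T16G12.3 at -4.98, while most blue points lie close to 0. The positions of his-45 and sdz-25, which were at 0 counts in 1 group, depend on the prior count.

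The number of calls rested on single libraries. Without ΔLOTR-1 replicate 1 it was 246, without ΔLOTR-1 replicate 4 it was 434, and without wild-type replicates 1, 2 and 4 it was 361, 653 and 479. Without the block 43 genes (0.270%) were called, 30 higher and 13 lower. A set of 166 genes (1.04%), 80 higher (0.502%) and 86 lower (0.540%), was called in every blocked alternative, that is with each library left out, with the 8 libraries alone, with other size factors, with no filter on low counts and with DESeq2. Of these, 76 changed by at least 2-fold, 56 up and 20 down. Beside the single genes below, the number of leave-one-out fits that kept the call is given where it was not 8 of 8.

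**Figure D2:**
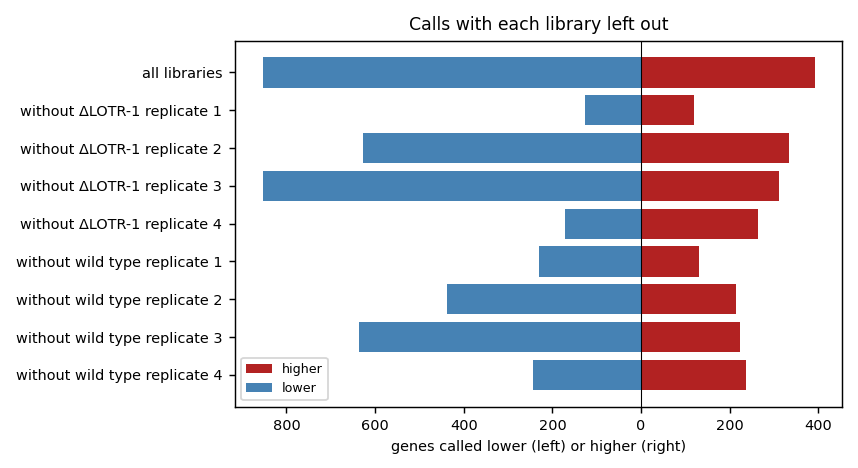
Bars give the number of genes called lower (blue, to the left) and higher (red, to the right) with all libraries and with each of the 8 libraries left out. Calls fall from 1246 to 246 without ΔLOTR-1 replicate 1 and stay at 1163 without ΔLOTR-1 replicate 3; genes called lower vary from 127 to 852.

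Among the strongest rises were genes near 0 in the wild type that reached 26.1 CPM or more in ΔLOTR-1. The log2 fold change of sdz-25, described below, was larger (8.75), but its ΔLOTR-1 libraries reached at most 3.04 CPM. F55B11.6 (chromosome IV) measured 0.0632, 0.243, 0.449 and 0.270 CPM in wild-type lysates 1 to 4 and 56.5, 61.7, 42.9 and 26.1 CPM in ΔLOTR-1, a log2 fold change of 7.46 (SE 0.42, adjusted p = 1.2e-07). F40D4.13 (chromosome V) measured 0.632, 0.487, 0.449 and 0.649 CPM in the wild type and 50.8, 59.8, 70.8 and 70.7 CPM in ΔLOTR-1, a log2 fold change of 6.82 (SE 0.20, adjusted p = 1.4e-10). The groups were far apart for both genes, and the rise was also called in the polysome fraction, at 7.77 and 7.65. They behaved differently in the domain deletions. F55B11.6 stood at 0.492 ± 0.279 CPM in ΔLOTUS and 0.480 ± 0.144 CPM in ΔTudor, lower than in ΔLOTR-1 by 6.495 (adjusted p = 4.0e-07) and 6.56 (adjusted p = 4.5e-07) on the log2 scale. F40D4.13 was at 0.5002 ± 0.139 CPM in ΔLOTUS but at 54.4 ± 10.4 CPM in ΔTudor, where the log2 difference from ΔLOTR-1 was -0.21 (SE 0.13, adjusted p = 0.68).

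Genes with known products were among the rises. timm-17B.2, which encodes a member of the Tim17 family of mitochondrial import proteins, rose from 8.94, 6.36, 8.18 and 8.98 CPM to 54.2, 68.3, 80.9 and 84.9 CPM in lysates 1 to 4, a log2 fold change of 3.15 (SE 0.12, adjusted p = 2.8e-09). rnh-1.3, an RNase H gene, rose from 7.08, 8.06, 9.19 and 6.84 CPM to 93.6, 87.4, 52.1 and 41.2 CPM, a log2 fold change of 3.08 (SE 0.28, adjusted p = 1.8e-05). dep-1, which encodes a receptor tyrosine phosphatase that limits EGF receptor signalling, rose from 8.03, 11.5, 11.2 and 6.33 CPM to 60.1, 68.6, 40.9 and 31.01 CPM, a log2 fold change of 2.42 (SE 0.14, adjusted p = 1.9e-07). The lowest ΔLOTR-1 library was above the highest wild-type library for each of these 3 genes. The direct tests separated them: dep-1 stood below its ΔLOTR-1 level in each domain deletion, by 1.70 in ΔLOTUS (adjusted p = 7.8e-06) and by 2.102 in ΔTudor (adjusted p = 1.6e-06) on the log2 scale. rnh-1.3 was lower in ΔLOTUS by 3.198 (adjusted p = 1.4e-05) and at 80.0 ± 28.5 CPM in ΔTudor, where the difference of 0.23 (SE 0.24) did not pass (adjusted p = 0.79). timm-17B.2 was intermediate in ΔTudor, at 32.0 ± 5.49 CPM, lower than in ΔLOTR-1 by 1.17 (SE 0.11, adjusted p = 5.8e-05), and at 13.1 ± 0.840 CPM in ΔLOTUS. saeg-2, a gene named for suppressing activated EGL-4 and chosen after its values were seen, rose from 6.11 ± 1.399 to 52.9 ± 21.9 CPM (log2 fold change 2.98, SE 0.27, adjusted p = 1.9e-05) and stood at 74.7 ± 33.4 CPM in ΔLOTUS.

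Some of the other large rises were in genes with no described product. W09H1.4 rose from 1.33, 1.37, 0.839 and 1.35 CPM to 20.6, 19.5, 8.75 and 4.09 CPM (log2 fold change 3.25, SE 0.29, adjusted p = 1.8e-05). R11A8.1 rose from 15.1 ± 4.37 to 52.6 ± 22.1 CPM (1.74, SE 0.12, adjusted p = 1.4e-06), with 59.7 ± 25.5 CPM in ΔLOTUS and 62.6 ± 31.3 CPM in ΔTudor. Y53F4B.45 rose from 11.2, 10.6, 11.9 and 20.2 CPM to 35.8, 31.6, 44.8 and 67.4 CPM (1.73, SE 0.12, adjusted p = 1.9e-06) and was lower in ΔLOTUS and ΔTudor by 1.07 and 1.70 on the log2 scale (adjusted p = 0.00020 and 4.1e-06). R11A8.1 and Y53F4B.45 thus rose to a like degree, and the direct tests separated only Y53F4B.45 from the domain deletions. F11D11.3, Y53G8AM.7, Y39B6A.69, C08F11.7 and F58D5.3 were each under 1 CPM in every wild-type library and rose by 3.02 to 4.62 on the log2 scale. Of the 113 genes that rose by at least 2-fold, 44 differed from ΔLOTUS and 38 from ΔTudor in the direct tests, and 28 differed from both. Over the whole table, ΔLOTUS differed from ΔLOTR-1 in 1.36% of genes and ΔTudor in 0.527%. The 113 genes were picked for high values in the same ΔLOTR-1 libraries that enter the direct tests. That choice may by itself raise their share above that of the whole table, so no conclusion is drawn from the contrast.

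**Figure D3:**
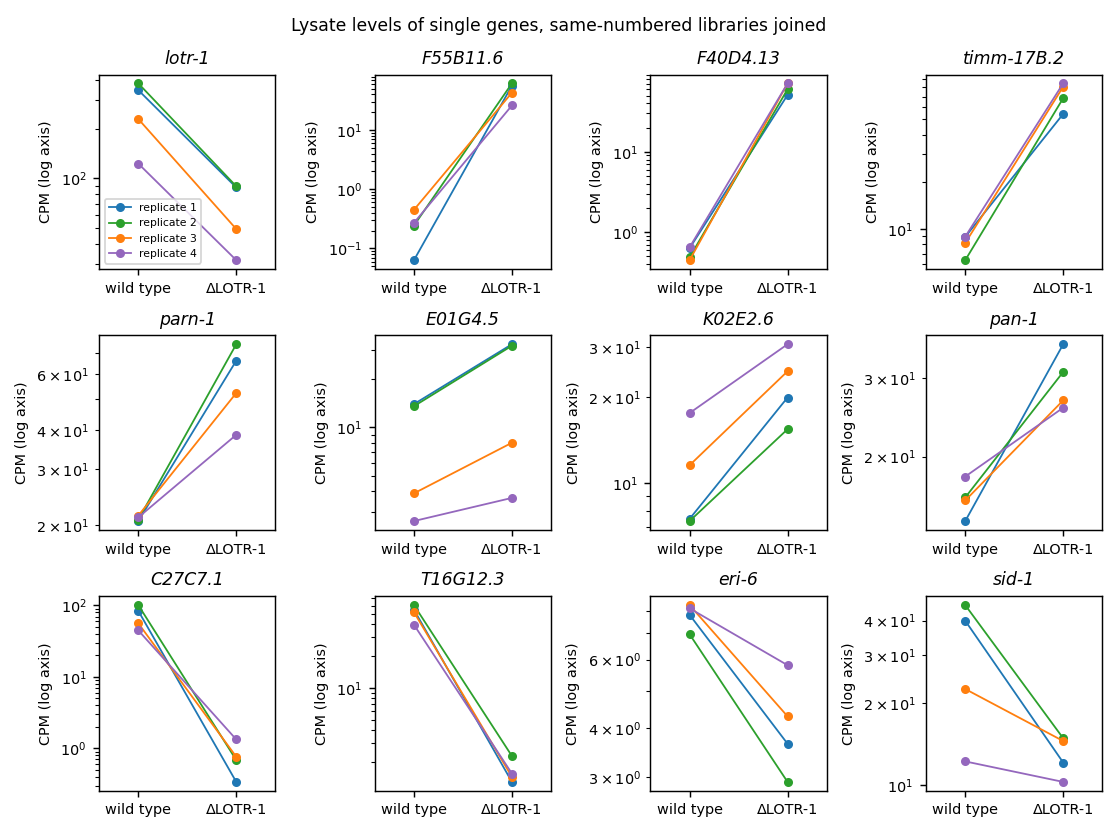
Each panel shows 1 gene in CPM on a log axis, with a point per lysate library and a line joining the same-numbered wild-type and ΔLOTR-1 libraries (4 pairs, coloured by replicate number). F55B11.6, F40D4.13, timm-17B.2 and parn-1 rise and C27C7.1 and T16G12.3 fall with no overlap between groups, while E01G4.5, K02E2.6 and sid-1 overlap between groups and move the same way in all 4 pairs.

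The strongest falls were also in few genes. C27C7.1 (chromosome I) measured 84.0, 101.2, 56.3 and 44.8 CPM in wild-type lysates 1 to 4 and 0.338, 0.683, 0.760 and 1.33 CPM in ΔLOTR-1, a log2 fold change of -6.45 (SE 0.31, adjusted p = 2.5e-08). R03D7.2 (chromosome II) measured 23.6, 27.8, 29.5 and 31.4 CPM against 0.430, 0.745, 1.28 and 1.05 CPM, a log2 fold change of -5.04 (SE 0.24, adjusted p = 2.5e-08). T16G12.3 (chromosome III) measured 54.8, 60.6, 51.99 and 39.5 CPM against 1.29, 2.27, 1.44 and 1.55 CPM, a log2 fold change of -4.98 (SE 0.19, adjusted p = 2.8e-09). In each gene the groups were apart by an order of magnitude or more. H11L12.1, on the X chromosome, fell from 8.00 ± 1.71 to 0.370 ± 0.0774 CPM, a log2 fold change of -4.40 (SE 0.22, adjusted p = 2.6e-08). All 4 were also called lower in the polysome fraction, with log2 fold changes from -6.64 (C27C7.1) to -3.69 (H11L12.1).

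The domain deletions divided these 4 genes. R03D7.2 was at 0.659 ± 0.189 CPM in ΔLOTUS, where the difference from ΔLOTR-1 did not pass (-0.42, SE 0.30, adjusted p = 0.45), and at 2.95 ± 1.63 CPM in ΔTudor, higher than in ΔLOTR-1 by 1.71 (SE 0.25, adjusted p = 0.0042). T16G12.3 was at 21.7 ± 3.00 CPM in ΔLOTUS and 37.7 ± 4.16 CPM in ΔTudor, higher than in ΔLOTR-1 by 3.74 (adjusted p = 6.1e-08) and 4.54 (adjusted p = 2.6e-08). C27C7.1 and H11L12.1 exceeded their ΔLOTR-1 levels in each domain deletion by 2.93 to 4.63 on the log2 scale. Both were still lower there than in the wild type. C27C7.1 had log2 fold changes of -3.04 in ΔLOTUS (adjusted p = 8.2e-06) and -1.82 in ΔTudor (adjusted p = 0.0012). Those of H11L12.1 were -0.90 (adjusted p = 0.0025) and -1.48 (adjusted p = 0.00073). Among smaller falls, ubc-26, which encodes an E2 ubiquitin-conjugating enzyme, went from 58.1, 62.5, 59.3 and 56.2 CPM to 27.2, 36.7, 28.2 and 28.4 CPM (-0.98, SE 0.07, adjusted p = 2.9e-06). sqv-2, which encodes a glycosyltransferase of glycosaminoglycan synthesis, fell from 47.7 ± 17 to 25.7 ± 9.67 CPM (-0.90, SE 0.08, adjusted p = 9.6e-06) and its groups overlapped. T03D3.5 (-1.81, SE 0.15, adjusted p = 6.5e-06) and Y57G11C.51 (-1.19, SE 0.11, adjusted p = 2.4e-05) also fell, with no overlap between groups.

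A group of histone and other low genes was listed at 0 in ΔLOTR-1. The counts of his-45, an H3 histone gene, were 152, 159, 55 and 74 in wild-type lysates 1 to 4 and 0 in all 4 ΔLOTR-1 lysates, at least 139.5-fold lower against a floor of 3 counts over the group (adjusted p = 0.032). That call was kept in 1 of the 8 leave-one-out fits, the one without ΔLOTR-1 replicate 3, and the others gave adjusted p = 0.057 to 0.13. Y19D10A.11 had 48, 99, 59 and 29 counts in the wild type and 0 in ΔLOTR-1, at least 74.5-fold lower (adjusted p = 0.023), a call lost without ΔLOTR-1 replicates 1 or 4 or wild-type replicate 3 (adjusted p = 0.051 to 0.094). The polysome fraction did not show these 2 falls. There the log2 fold change was 0.48 for his-45 (SE 1.68, adjusted p = 0.98) and 1.19 for Y19D10A.11 (SE 0.94, adjusted p = 0.81). Polysome means were under 1 CPM for both genes in both strains, so the test was weak. F07B7.2 kept its sign there without passing (-4.50, adjusted p = 0.49). Salmon divides reads between near-identical copies, so a single histone gene at 0 is uncertain. W09B7.2 and F07B7.2 fell, with log2 fold changes of -4.25 and -3.66; their calls were kept in 3 and 5 of the leave-one-out fits, and lost at adjusted p = 0.057 to 0.091 and 0.055 to 0.072 in those without ΔLOTR-1 replicate 1, wild-type replicate 2 and, for W09B7.2 alone, ΔLOTR-1 replicate 4 and wild-type replicates 1 and 3, and, for F07B7.2 alone, wild-type replicate 4.

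Z granule genes other than lotr-1 changed little. Of 6 tested, lotr-1 was lower and znfx-1, the helicase that defines the granule, was higher, beside 5.36% lower and 2.46% higher over all genes. znfx-1 rose from 66.2 ± 11.4 to 84.1 ± 14.7 CPM (log2 fold change 0.34, SE 0.08, adjusted p = 0.025). The 4 pairs of znfx-1 read 67.7 against 83.7, 71.4 against 88.95, 75.8 against 99.3 and 49.8 against 64.2 CPM, so each pair rose by a like amount while the groups overlapped. Its call was kept only in the leave-one-out fits without ΔLOTR-1 replicate 3 or wild-type replicate 2, with adjusted p = 0.054 to 0.091 in the other 6. The Argonaute gene wago-4 (-0.11, SE 0.09, adjusted p = 0.53) did not pass. Nor did pid-2 (-0.18, adjusted p = 0.098), pid-4 (0.16, adjusted p = 0.14) and pid-5 (0.08, adjusted p = 0.50), which encode a Z granule protein and its partners. In the polysome fraction znfx-1 had a log2 fold change of -0.02 (adjusted p = 0.98). Against the wild type, znfx-1 was also higher in the lysates of ΔLOTUS (0.48, adjusted p = 0.0017) and ΔTudor (0.49, adjusted p = 0.0031). Neither direct difference from ΔLOTR-1 passed (adjusted p = 0.36 and 0.68).

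Of 18 P granule genes tested, only pan-1 was called, a smaller share than the 7.82% of all genes. pan-1, which encodes a leucine-rich repeat protein of P granules, rose from 14.3, 16.18, 15.9 and 18.03 CPM to 35.8, 31, 26.8 and 25.8 CPM, a log2 fold change of 0.86 (SE 0.16, adjusted p = 0.0068), with no overlap between groups. It was at 37.5 ± 9.87 CPM in ΔLOTUS and 31.6 ± 7.32 CPM in ΔTudor, and neither difference from ΔLOTR-1 passed (adjusted p = 0.27 and 0.89). The list's median log2 fold change was -0.10. The helicase gene glh-1 (-0.13, adjusted p = 0.40), the scaffold gene pgl-1 (-0.20, adjusted p = 0.11) and the LOTUS-domain genes mip-1 (-0.13, adjusted p = 0.24) and mip-2 (-0.13, adjusted p = 0.35) did not pass.

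In the piRNA pathway, 1 of 15 genes tested was higher and 1 lower, beside 2.46% higher and 5.36% lower over all genes. parn-1 encodes the exonuclease that trims the 3′ ends of piRNAs. It measured 20.6, 20.8, 21.4 and 21.2 CPM in wild-type lysates 1 to 4 and 66.2, 74.6, 52.4 and 38.6 CPM in ΔLOTR-1, a log2 fold change of 1.42 (SE 0.15, adjusted p = 7.4e-05), and the groups did not overlap. parn-1 also rose in the polysome fraction, by 1.98 (SE 0.23, adjusted p = 0.00024). It stood at 14.7 ± 0.847 CPM in ΔLOTUS, lower than in ΔLOTR-1 by 1.95 (SE 0.15, adjusted p = 4.8e-06), and at 68.6 ± 18.6 CPM in ΔTudor, a difference of 0.24 (SE 0.14, adjusted p = 0.68). pid-3, a subunit of a piRNA biogenesis complex, fell by 0.25 (SE 0.06, adjusted p = 0.034) on the log2 scale; this call was kept only without ΔLOTR-1 replicate 2 or wild-type replicate 3 and had adjusted p = 0.051 to 0.16 in the other 6 fits. Against the wild type, pid-3 was also lower in ΔLOTUS (-0.23, adjusted p = 0.025) and ΔTudor (-0.25, adjusted p = 0.023). Neither direct difference of pid-3 from ΔLOTR-1 passed (adjusted p = 0.88 and 0.999). The piRNA Argonaute gene prg-1 (-0.08, adjusted p = 0.58) did not pass.

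Of 19 genes of 22G-RNA amplification, ego-1 and rrf-1, both encoding RNA-dependent RNA polymerases, were higher and none was lower. The shares over all genes were 2.46% and 5.36%. ego-1 measured 97.9, 83.2, 72.9 and 47.7 CPM in the wild type and 138, 104.3, 96.6 and 58.8 CPM in ΔLOTR-1 (0.38, SE 0.08, adjusted p = 0.014), and lost its call without ΔLOTR-1 replicate 1 or wild-type replicate 1 (adjusted p = 0.063 to 0.072). rrf-1 went from 36.1 ± 13.4 to 49.9 ± 20.1 CPM (0.46, SE 0.11, adjusted p = 0.022) and was kept only without ΔLOTR-1 replicate 2 or wild-type replicate 4 (adjusted p = 0.052 to 0.10 in the others). Both were higher in all 4 pairs with overlapping groups, and neither was called in the polysome fraction, at -0.09 (adjusted p = 0.92) and -0.10 (adjusted p = 0.91). Against the wild type, ego-1 was also higher in the lysates of ΔLOTUS (0.56, adjusted p = 0.00085) and ΔTudor (0.52, adjusted p = 0.0023). So was rrf-1, by 0.64 (adjusted p = 0.0015) and 0.69 (adjusted p = 0.0023). No direct difference of either gene from ΔLOTR-1 passed (adjusted p = 0.23 to 0.68). The Mutator scaffold gene mut-16 (0.20, adjusted p = 0.12) did not pass, and the list's median was -0.02. None of 18 Argonaute genes was called with edgeR, 1 was higher without ΔLOTR-1 replicate 2, 2 were higher with DESeq2 and 5 in the adjusted table with limma; csr-1 (0.05, adjusted p = 0.85), hrde-1 (-0.02, adjusted p = 0.91) and wago-1 (-0.11, adjusted p = 0.38) are examples.

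Among 13 genes of the 26G-RNA (ERI) pathway, eri-6 was lower and drh-1 higher, beside 5.36% lower and 2.46% higher over all genes. eri-6, whose transcript is spliced in trans to that of eri-7 to encode a helicase, measured 7.81, 6.96, 8.27 and 8.11 CPM in the wild type and 3.66, 2.92, 4.30 and 5.80 CPM in ΔLOTR-1, with no overlap. Its log2 fold change was -0.92 (SE 0.13, adjusted p = 0.00094) in the lysate and -1.39 (SE 0.24, adjusted p = 0.0082) in the polysome fraction. eri-6 was higher in ΔTudor than in ΔLOTR-1 by 0.78 (SE 0.13, adjusted p = 0.0079), and the difference of 0.35 in ΔLOTUS did not pass (adjusted p = 0.17). eri-7 had a log2 fold change of 0.24 (SE 0.13, adjusted p = 0.30). drh-1, which encodes an antiviral RIG-I-like helicase, rose by 0.30 (SE 0.07, adjusted p = 0.024), a call kept only without ΔLOTR-1 replicate 4 or wild-type replicate 4 (adjusted p = 0.052 to 0.089 in the others). Against the wild type, drh-1 was also higher in ΔLOTUS (0.42, adjusted p = 0.0017) and ΔTudor (0.44, adjusted p = 0.0027). Neither direct difference of drh-1 from ΔLOTR-1 passed (adjusted p = 0.39 and 0.67).

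Among 25 genes of nuclear RNAi and heterochromatin, nrde-2, hrde-4 and mes-3 were higher and hrde-2 lower, with a list median of 0.07. Over all genes 2.46% were higher and 5.36% lower. nrde-2, a nuclear RNAi factor, read 67.3, 54.1, 67.0 and 69.1 CPM in the wild type and 86.95, 67.5, 89.4 and 81.3 CPM in ΔLOTR-1 (0.33, SE 0.06, adjusted p = 0.0088), higher in all 4 pairs with overlapping groups. mes-3, of the C. elegans Polycomb-like complex, rose by 0.44 (SE 0.11, adjusted p = 0.030) and hrde-4 by 0.36 (SE 0.09, adjusted p = 0.028), while hrde-2 fell by 0.23 (SE 0.06, adjusted p = 0.042). These 3 calls were weak: mes-3 and hrde-2 kept theirs only without ΔLOTR-1 replicate 3, and hrde-4 only without ΔLOTR-1 replicates 2 or 4 or wild-type replicate 4, with adjusted p = 0.052 to 0.19 over the fits that lost a call. Against the wild type, nrde-2, hrde-4 and mes-3 were also higher in ΔLOTUS (0.37, 0.56 and 0.75) and ΔTudor (0.44, 0.59 and 0.71). All of these passed (adjusted p = 0.00092 to 0.0024), and hrde-2 did not (adjusted p = 0.24 and 0.30). No direct difference of nrde-2, hrde-4 or mes-3 from ΔLOTR-1 passed (adjusted p = 0.16 to 0.81).

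sid-1, which encodes the channel that takes up double-stranded RNA for systemic RNAi, was not in these lists and was chosen after its values were seen. It measured 39.98, 45.6, 22.5 and 12.2 CPM in wild-type lysates 1 to 4 and 12.1, 14.9, 14.5 and 10.3 CPM in ΔLOTR-1. The fall was largest in pairs 1 and 2, and the groups overlapped, since ΔLOTR-1 lysates 2 and 3 exceeded wild-type lysate 4. The log2 fold change was -1.07 (SE 0.19, adjusted p = 0.0065) in the lysate and -1.03 (SE 0.21, adjusted p = 0.028) in the polysome fraction. sid-1 stood at 27.1 ± 9.52 CPM in ΔLOTUS, higher than in ΔLOTR-1 by 0.98 (SE 0.19, adjusted p = 0.021), and at 25.3 ± 6.47 CPM in ΔTudor, where the difference of 0.92 (SE 0.19) missed the threshold (adjusted p = 0.056). rde-11, another RNAi gene, had a log2 fold change of 0.22 (SE 0.09, adjusted p = 0.16).

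Of 7 known small-RNA target genes tested, 4 were higher and none lower, with a median log2 fold change of 1.04, beside 2.46% higher over all genes. K02E2.6 measured 7.49, 7.36, 11.56 and 17.6 CPM in wild-type lysates 1 to 4 and 20.0, 15.5, 24.7 and 30.8 CPM in ΔLOTR-1 (1.09, SE 0.12, adjusted p = 0.00012). E01G4.5 measured 13.9, 13.5, 3.89 and 2.62 CPM and 32.7, 32.0, 8.01 and 3.65 CPM (1.04, SE 0.12, adjusted p = 0.00025). Both were higher in every pair although the levels of replicates 1 to 4 ran in opposite orders, and both passed in the polysome fraction, at 0.84 (adjusted p = 0.040) and 1.53 (adjusted p = 8.4e-05). K02E2.6 was lower in ΔLOTUS and ΔTudor than in ΔLOTR-1 by 0.87 (adjusted p = 0.00093) and 1.22 (adjusted p = 5.9e-05) on the log2 scale, whereas for E01G4.5 the difference of ΔLOTUS from ΔLOTR-1 did not pass (0.02, SE 0.12, adjusted p = 0.94) and that of ΔTudor did (-0.61, SE 0.12, adjusted p = 0.034). bath-45, at 1.07 ± 0.489 against 2.18 ± 0.524 CPM (adjusted p = 0.026), and xol-1, the sex-determination switch gene, at 0.524 ± 0.120 against 1.58 ± 0.798 CPM (adjusted p = 0.031), each kept the call in 2 of 8 leave-one-out fits. bath-45 kept it without ΔLOTR-1 replicate 2 or wild-type replicate 4 and xol-1 without either replicate 4, and adjusted p was 0.051 to 0.13 in the rest.

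Several of the rises lay side by side. In the gene order of the assembly WBcel235, 11 neighbouring pairs were formed by the 127 annotated genes called at 2-fold or more, 10 of them with the same direction, and 2 of the pairs overlap, so their reads may be shared. Among the same-direction pairs, F26D11.1 with F26D11.20 and W09B7.2 with the histone gene his-51 were falls. his-51 was at 0 counts in ΔLOTR-1 and kept its call in 3 of 8 leave-one-out fits. How many such pairs other sets of genes would form was not tested. K02E2.6, K02E2.11 and F53H2.1 on chromosome V formed a run: K02E2.11 rose from 1.71, 1.73, 2.43 and 3.70 CPM to 4.95, 4.38, 5.63 and 6.94 CPM (1.23, SE 0.13, adjusted p = 0.00013) and F53H2.1 from 0.0563 ± 0.0675 to 0.467 ± 0.134 CPM (adjusted p = 0.0083). W09H1.1, next to W09H1.4, rose by 2.02 (SE 0.32, adjusted p = 0.0035), and xdh-1, a xanthine dehydrogenase gene next to F55B11.6, rose from 4.46, 7.602, 26.3 and 35.9 CPM to 17.4, 18.5, 44.6 and 59.97 CPM (1.16, SE 0.16, adjusted p = 0.0012). sdz-25, an embryonic gene next to timm-17B.2, had 0 counts in all 4 wild-type lysates and 96, 98, 16 and 1 counts in ΔLOTR-1. This was at least 74.0-fold higher over the group (adjusted p = 0.0047), and sdz-25 was at 1.71 ± 1.89 CPM in ΔLOTUS. Wild-type polysome libraries held sdz-25, at a mean of 0.602 ± 1.18 against 0.709 ± 1.38 CPM for ΔLOTR-1. That log2 difference of 0.27 (SE 1.32) did not pass (adjusted p = 0.98). M116.1, on the other side of sdz-25, was called lower (-6.64, adjusted p = 0.038), so these neighbours moved in opposite directions. The levels of M116.1 and its calls in the leave-one-out fits are not given here. ZK384.7 rose beside F11D11.3, from 0.266 ± 0.0591 to 1.93 ± 0.563 CPM (2.82, SE 0.32, adjusted p = 0.00021). These neighbours were chosen after their values were seen.

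Long noncoding RNAs were called more often than the background: of 48 tested, 9 were higher and 1 lower, 20.8% against 7.82% of all genes, although 5 of the 9 averaged under 1 CPM in the wild type with few counts. linc-8 measured 1.77, 2.37, 2.43 and 3.33 CPM in the wild type and 6.36, 5.31, 8.41 and 10.2 CPM in ΔLOTR-1 (1.62, SE 0.16, adjusted p = 3.3e-05). linc-17 measured 0.601, 0.547, 1.20 and 1.81 CPM and 3.69, 3.23, 4.98 and 6.74 CPM (2.2, SE 0.25, adjusted p = 0.00020). Neither overlapped between groups, and both were lower in ΔLOTUS and ΔTudor than in ΔLOTR-1, by 0.69 and 1.22 for linc-8 and by 2.06 and 2.362 for linc-17 on the log2 scale. linc-29 rose by 1.01 (SE 0.19, adjusted p = 0.0079) and also passed with each library left out, unlike linc-12, linc-16, linc-36, linc-63, C39B5.16 and F31A9.2, which kept the call in 1 to 4 of 8 fits. lep-5, a noncoding RNA of developmental timing, was the 1 that fell, by 0.24 (SE 0.06, adjusted p = 0.027), and kept the call in 1 fit.

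Loci known here by an identifier alone gave 59 calls among 578 tested (10.2%, beside 7.82% of all genes), 38 higher and 21 lower, with 21 of the higher and 9 of the lower at 2-fold or more. WBGene00044642 rose from 1.58, 2.77, 1.38 and 0.514 CPM to 26.3, 28.7, 16.05 and 8.95 CPM, a log2 fold change of 3.71 (SE 0.18, adjusted p = 2.5e-08). WBGene00050977 rose from 1.11 ± 0.723 to 14.01 ± 5.56 CPM (3.72, SE 0.28, adjusted p = 2.9e-06). Both were lower in ΔLOTUS and ΔTudor than in ΔLOTR-1, by 2.61 to 3.31 on the log2 scale. WBGene00008537 fell from 41.4, 28.9, 8.66 and 4.24 CPM to 6.17, 4.78, 1.65 and 0.498 CPM (-2.66, SE 0.11, adjusted p = 5.5e-09). Its groups overlapped, and a fall in all 4 pairs was a condition for naming it. WBGene00014947 fell by 2.01 (SE 0.19, adjusted p = 2.4e-05).

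Calls were spread over the autosomes and fewest on the X. By the chromosome of the same assembly, 10.6% of tested genes were called on I, 7.11% on II, 10.5% on III, 8.39% on IV and 6.29% on V, against 2.80% on the X. On the X, 37 of 2179 genes were higher (1.70%) and 24 lower (1.1%), so the shortfall was mainly in genes called lower, which made up 4.24% to 7.92% of genes on the autosomes. The X-linked median log2 fold change was 0.01. Chromosome V held 41 of the genes called at 2-fold or more, 27 higher and 14 lower.

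**Figure D4:**
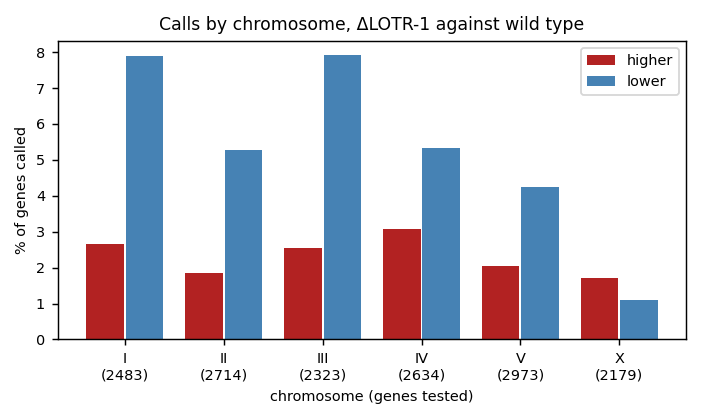
Bars give the percent of tested genes on each chromosome that were called higher (red) or lower (blue) in ΔLOTR-1, with the number of genes tested in brackets. The share called lower ranges from 4.24% on V to 7.92% on III and is 1.1% on the X; the share called higher ranges from 1.70% on the X to 3.08% on IV.

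Small falls were concentrated in mRNAs of the ribosome. Of 48 large-subunit ribosomal protein genes tested, 42 were lower and 1 higher, with a median log2 fold change of -0.33, and of 31 small-subunit genes 29 were lower, with a median of -0.33, beside 5.36% lower and a median of 0.01 over all genes. rpl-36 read 1276, 1176, 1180 and 1607 CPM in wild-type lysates 1 to 4 and 886, 885, 920.1 and 1090.0 CPM in ΔLOTR-1 (-0.46, SE 0.06, adjusted p = 0.0011). rps-29 fell from 523 ± 55.8 to 391 ± 23.7 CPM (-0.41, SE 0.06, adjusted p = 0.0020) and rps-30 from 1501 ± 248 to 1111 ± 113 CPM (-0.43, SE 0.07, adjusted p = 0.0027). No ΔLOTR-1 library reached the lowest wild-type library for these 3 genes. The large-subunit mRNAs together took 8.53%, 8.29%, 9.78% and 12.1% of counts in the wild type and 7.29%, 7.50%, 8.59% and 10.2% in ΔLOTR-1, lower in all 4 pairs, and replicate 4 was highest in both strains. The member that rose was rpl-42, from 0.379, 0.456, 4.73 and 8.30 CPM to 2.43, 2.02, 10.2 and 13.2 CPM (1.39, SE 0.28, adjusted p = 0.013), a level far below that of the other members; it was chosen after its values were seen and lost its call without ΔLOTR-1 replicate 1.

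The number of ribosomal protein genes called lower depended on single libraries. For the large subunit it was 12 without ΔLOTR-1 replicate 1, 18 without ΔLOTR-1 replicate 4 and 26 without wild-type replicate 1. For the small subunit it was 12, 12 and 16 in the same fits and 15 without wild-type replicate 4. Without the block none was called, with medians of -0.34 and -0.34. In the adjusted table with limma 36 and 26 were called lower. In all blocked alternatives together, 11 large-subunit and 12 small-subunit genes were called. rpl-36 was at 941 ± 147 CPM in ΔLOTUS and 969 ± 151 CPM in ΔTudor, and neither difference from ΔLOTR-1 passed (-0.01, SE 0.06, adjusted p = 0.94, and 0.03, SE 0.06, adjusted p = 0.90). The body-shape collagens, whose share of counts also moved with the replicate number, had a median log2 fold change of -0.42 with none of 20 called. Their part in the ribosomal result was not tested.

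Other lists of growth and energy genes fell by less. Of 67 mitochondrial ribosomal protein genes 28 were lower (median -0.22) and of 36 nuclear genes of the respiratory chain and ATP synthase 16 (median -0.21). Of 33 proteasome genes 15 were lower (median -0.18) and of 41 translation initiation and elongation factors 11 (median -0.17). None of these lists had a member called higher with edgeR. Over all genes 5.36% were lower and 2.46% higher, with a median of 0.01. In the adjusted table with limma 11, 8, 6 and 7 members were called lower, and 3 of the factors higher. atp-4, of the ATP synthase, fell from 453 ± 75.3 to 348 ± 35.4 CPM (-0.37, SE 0.05, adjusted p = 0.0017) and cox-4, of cytochrome c oxidase, from 689 ± 88.6 to 549 ± 73.6 CPM (-0.33, SE 0.05, adjusted p = 0.0029). ife-5, which encodes an eIF4E cap-binding protein, fell from 18.58 ± 3.957 to 12.59 ± 2.022 CPM (-0.55, SE 0.08, adjusted p = 0.0020). The genes called lower without ΔLOTR-1 replicate 1, ΔLOTR-1 replicate 4, wild-type replicate 1 and wild-type replicate 4 numbered 3, 7, 8 and 9 for mitochondrial ribosomal proteins, 5, 6, 7 and 8 for the respiratory chain, 0 in each fit for the proteasome and 1, 2, 4 and 4 for the factors. Without wild-type replicate 2 the proteasome count was 7, without ΔLOTR-1 replicate 3 it was 10, and without ΔLOTR-1 replicate 2 the factor count was 17. The 10 protein-coding genes of the mitochondrial genome and 28 chaperone genes had no member called, with medians of -0.12 and -0.05.

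Of 32 aminoacyl-tRNA synthetase genes, 4 were lower and 1 higher (median -0.05), beside 5.36% lower and 2.46% higher over all genes. The lower count was 1 without ΔLOTR-1 replicate 4, 2 without ΔLOTR-1 replicate 1 or wild-type replicates 1 or 4, and 7 without ΔLOTR-1 replicate 2. cars-1, for cysteine, fell from 217, 227, 182 and 169 CPM to 124, 151, 141 and 136 CPM (-0.52, SE 0.08, adjusted p = 0.0025) and also fell in the polysome fraction (-0.54, SE 0.11, adjusted p = 0.047). vars-1, for valine, rose by 0.39 (SE 0.09, adjusted p = 0.021), a call lost without ΔLOTR-1 replicate 1 or wild-type replicates 1, 2 or 3 (adjusted p = 0.053 to 0.11). Of 65 histone genes, 10 were lower with a median of -0.23, beside 5.36% lower over all genes. The histone count was 0 without ΔLOTR-1 replicate 1 or wild-type replicate 1, 1 without either replicate 4, 4 without ΔLOTR-1 replicate 2 and 6 without wild-type replicate 2. his-74, an H3.3-type gene with a sequence of its own, fell from 184 ± 76.4 to 148 ± 53.5 CPM (-0.30, SE 0.07, adjusted p = 0.024), with its call lost in the fits without replicate 1 or 4 of either strain (adjusted p = 0.088 to 0.14).

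**Figure D5:**
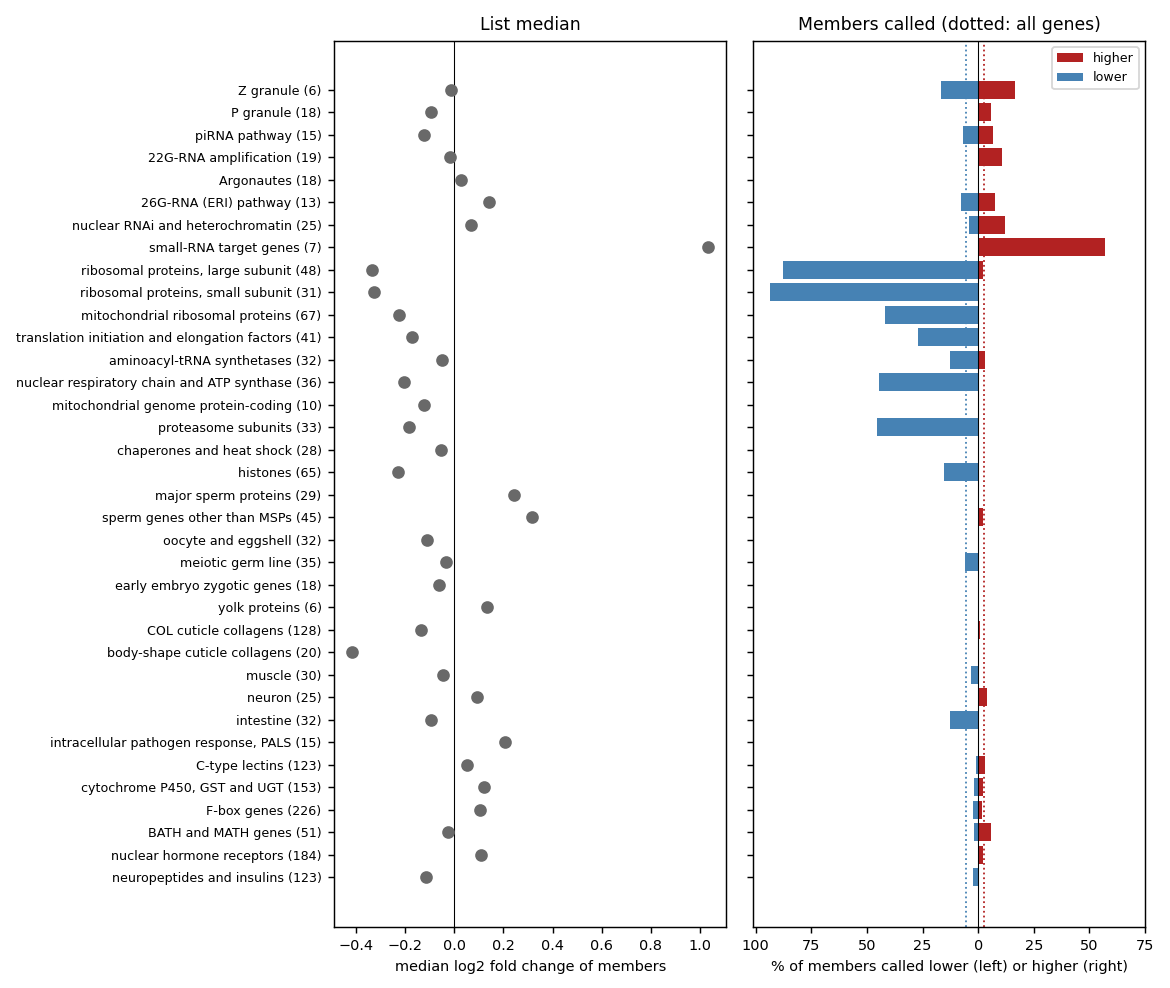
For each gene list, with the number of members tested in brackets, the left panel gives the median log2 fold change of ΔLOTR-1 against wild type and the right panel the percent of members called lower (blue) or higher (red); dotted lines mark the shares over all genes, 5.36% and 2.46%. Ribosomal protein lists stand out to the left, with 42 of 48 and 29 of 31 members called lower, and the small-RNA target genes to the right, with 4 of 7.

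Germ cell markers gave few calls, beside 7.82% of all genes. None of 29 major sperm protein genes (median 0.24), 32 oocyte and eggshell genes (median -0.11), 18 early embryo genes (median -0.06) or 6 yolk genes (median 0.13) was called with edgeR. The summed share of counts ranged from 0.0652% to 0.511% in the wild type and 0.103% to 0.485% in ΔLOTR-1 for major sperm proteins, with no member at 0 in all 8 libraries. By pair it read 0.0652% against 0.122%, 0.0689% against 0.103%, 0.427% against 0.429% and 0.511% against 0.485%, so it was higher in ΔLOTR-1 in pairs 1 and 2 and close to equal in pairs 3 and 4. For yolk mRNAs it ranged from 1.18% to 5.55% and from 1.98% to 6.37%. Of 45 other sperm genes 1 was called higher, close to the 2.46% of all genes. It was fog-3, which encodes a Tob family protein that directs germ cells to the sperm fate. fog-3 stood at 1.55, 1.64, 4.79 and 6.98 CPM in the wild type and 8.14, 6.62, 8.51 and 12.33 CPM in ΔLOTR-1. It rose by 1.39 (SE 0.26, adjusted p = 0.0078) in the lysate and by 1.398 (SE 0.20, adjusted p = 0.0018) in the polysome fraction. The rise of fog-3 was in all 4 pairs and largest in pairs 1 and 2, while the list's median was 0.32. The 45 genes together took 0.0398%, 0.0396%, 0.156% and 0.191% of counts in the wild type and 0.0607%, 0.0511%, 0.167% and 0.192% in ΔLOTR-1, higher in all 4 pairs and by most in pairs 1 and 2, as for fog-3. The part of these shares in the rise of fog-3 was not tested. In the adjusted table with limma 8 of these genes and 3 major sperm protein genes were called higher. Of 35 meiotic germ line genes, htp-1 and him-3, which encode chromosome axis proteins, fell, a share close to the 5.36% of all genes. Their log2 fold changes were -0.26 and -0.18 (adjusted p = 0.029 and 0.037), with the call kept in 3 and 1 of 8 leave-one-out fits. Neither passed with other size factors, with no filter, with the 8 libraries alone or in the adjusted table with limma (adjusted p = 0.060 to 0.31), and with limma 6 genes of the list were called higher and none lower.

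Among somatic markers the intestinal genes gave the most calls. Of 32 tested 4 were lower, a larger share than the 5.36% of all genes. mtl-2, a metallothionein gene, fell in every pair (-0.51, SE 0.08, adjusted p = 0.0035) despite levels of 25.8 to 160 CPM within ΔLOTR-1. The calls of spp-5, spp-14 and cpr-5 were kept in 1, 3 and 1 of 8 leave-one-out fits, and 1 intestinal gene was called without ΔLOTR-1 replicates 1 or 4 or wild-type replicates 1, 2 or 4. Over all genes 5.36% were lower and 2.46% higher. Muscle (1 of 30, lower), neuron (1 of 25, higher) and col-type cuticle collagen genes (1 of 128, higher) each gave 1 call. These were pat-10, unc-104 and col-45, which kept it in 0, 4 and 2 of 8 leave-one-out fits, and 7 collagens were called lower without wild-type replicate 1. Among immune and detoxification families, none of 15 pals genes, 5 of 123 C-type lectins (4 higher) and 6 of 153 cytochrome P450, GST and UGT genes (3 higher) were called, shares below the 7.82% of all genes. Without ΔLOTR-1 replicate 1 there were 2 calls among the lectins and 0 among the detoxification genes.

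Large gene families held single strong movers. Of 226 F-box genes, which encode substrate adaptors of ubiquitin ligases, 4 were higher and 5 lower, a smaller share than the 7.82% of all genes, and 1 was higher without ΔLOTR-1 replicates 1 or 4 or wild-type replicates 1, 2 or 3. fbxb-41 measured 8.44, 9.97, 4.94 and 0.757 CPM in wild-type lysates 1 to 4 and 65.9, 75.3, 39.5 and 26.8 CPM in ΔLOTR-1 (3.34, SE 0.30, adjusted p = 1.8e-05), and was lower in ΔLOTUS and ΔTudor than in ΔLOTR-1 by 2.51 and 3.08 on the log2 scale (adjusted p = 0.00020 and 5.8e-05). fbxb-7 fell from 8.12, 8.03, 2.22 and 1.33 CPM to 3.72, 3.17, 1.05 and 0.387 CPM (-1.27, SE 0.19, adjusted p = 0.0020). fbxa-192 fell from 14.9 ± 3.10 to 9.69 ± 2.31 CPM (-0.63, SE 0.08, adjusted p = 0.00051) and was higher in ΔLOTUS and ΔTudor than in ΔLOTR-1 by 1.00 and 0.84. F-box genes include near-identical copies, so the split of reads between members is uncertain. Of 51 BATH and MATH genes 3 were higher and 1 lower, about the background share, and none was called without replicate 1 of either strain; bath-24 rose from 3.68 ± 0.715 to 6.34 ± 1.51 CPM (0.76, SE 0.16, adjusted p = 0.016) and by 1.90 (SE 0.22, adjusted p = 0.00016) in the polysome fraction, and lost its lysate call without replicate 1 of either strain (adjusted p = 0.059 to 0.068). Of 184 nuclear hormone receptor genes 4 were higher, a smaller share than the 2.46% of all genes. The one with the smallest p was nhr-95 (0.59, SE 0.12, adjusted p = 0.014). Its call was lost without replicate 1 of either strain (adjusted p = 0.065 to 0.073), and no receptor gene was called in those fits. Of 123 neuropeptide and insulin genes 3 were lower, a smaller share than the 5.36% of all genes. nlp-36, flp-12 and flp-33 kept the call in 4, 1 and 0 of 8 leave-one-out fits, and the count was 0 without replicate 1 or 4 of either strain and 1 without ΔLOTR-1 replicate 2 or wild-type replicates 2 or 3.

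The polysome fraction, which came from another portion of the same lysates and is not an independent set of animals, gave 97 calls among 15378 genes (0.631%) in the same comparison. Most of the strongest lysate genes passed there with the same sign, and dep-1 (3.39), rnh-1.3 (3.23) and fbxb-41 (4.96) are examples. The smaller lysate changes mostly did not pass: rpl-36 had -0.39 (adjusted p = 0.080), nrde-2 -0.06 (adjusted p = 0.95) and pan-1 0.14 (adjusted p = 0.87). Differences between the fractions were not tested here.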

How the data were processed

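Polyadenylated RNA of whole animals was sequenced from stranded libraries, per the labels' protocols. The deposited values are expected counts, the estimated counts per gene that Salmon gives, and were rounded to whole numbers before any test. Salmon and DESeq2 are named without versions, per the submitters' processing notes. For the build, the annotation and the strand setting: not given in the sources used here. A second deposited table, adjusted by the authors in a way not given, was treated as a score and served only as an alternative. All 46926 rows named a gene; WBcel235 annotation matched 15309 of 15939 tested genes and gave chromosomes, gene types and neighbours.

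Tests used R 4.3.3 with edgeR 4.0.16 (quasi-likelihood test, filterByExpr, TMM, Benjamini-Hochberg over all genes tested, adjusted p under 0.05) in 1 fit of 16 lysates with strain and replicate number as terms; polysome libraries were fitted likewise. SE was taken from the F statistic, as the size of the log2 fold change over the root of F. Alternatives used DESeq2 1.42.0 and limma 3.58.1 (pseudocount 1), other size factors, no filter, no block, 8 libraries, and each library left out. Deviations of same-numbered wild-type and ΔLOTR-1 lysates correlated at r of 0.956 to 0.971 across 7371 genes, and 16 of 16 lysates correlated best with their own number. The numbers, which the labels share between strains, pair the samples, so the block was kept.

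The labels name 4 biological replicates but no separate cultures; the p-values therefore describe only how these samples vary, which may be technical. Floors cover counting error only. The compared libraries and gene lists were chosen with earlier results of these data known. Named genes were lotr-1; the 12 highest and 12 lowest log2 fold changes among called genes of at least 1 CPM in 1 group moving the same way in all 4 pairs, and the 6 higher and 6 lower with the next smallest p; every called member of the small-RNA lists and the Z granule genes; and up to 4 called members of each other list. Others are said to be chosen later or illustrate a list. No sequences or coordinates are printed. Reads of near-identical, overlapping or antisense genes may be divided wrongly.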

Additional observations from a re-analysis of the deposited data

Results flagged for a closer look

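In 276 groups of 4 libraries (138 genes, both strains), 1 library stood far from the other 3 in 20, and chance alone gives about 1 in 20 groups. Wild-type replicate 4 was the separate library for W09B7.2 (1.84 CPM), Y53F4B.45 (20.2 CPM), F58D5.3 (0.838 CPM), mrpl-55 (46.96 CPM), ife-5 (24.5 CPM), ife-1 (441 CPM), atp-4 (565 CPM), cox-6C (344 CPM) and cox-5A (948 CPM), above the others except for W09B7.2. ΔLOTR-1 replicate 4 was separate and high for rpl-36 (1090.0 CPM), rpl-43 (879 CPM), rps-21 (769.5 CPM), ife-5 (15.6 CPM), spp-5 (397 CPM) and fbxa-106 (2.60 CPM). ΔLOTR-1 replicate 2 was separate and high for ubc-26 (36.7 CPM) and mtl-2 (159.7 CPM) and low for clec-70 (0.435 CPM). Wild-type replicate 3 was low for W09H1.4 (0.839 CPM) and wild-type replicate 2 was low for nrde-2 (54.1 CPM). Most of these values belong to replicate 4 of a strain, and the part of the replicate in them was not tested.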

How the results depend on the processing

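Direction held far more often than the call. Leaving out the replicate block (no pairing) gave 43 calls, 69.8% of them higher, with 13 lower and 41 of at least 2-fold, and kept 22% of the 118 named called genes. edgeR with DESeq2 size factors gave 825 calls with 516 lower. No filter on low counts gave 523, 57.9% higher, with 220 lower. Only the 8 libraries gave 273, 54.9% higher, with 123 lower, and kept 55.9% of the named genes. The authors' adjusted table with limma gave 1900, 83.7% higher against 31.5% with edgeR, with 309 lower and 83 of at least 2-fold, and its median log2 fold change over all genes was 0.09 against 0.01. DESeq2 with the replicate term gave 1505 calls, 37.2% higher. The causes were not tested. The fit of the 8 libraries alone had fewer samples to estimate the spread and also tested fewer genes, 15266 against 15939.

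Leaving out each library in turn gave 246 to 1163 calls, 25.9% to 60.6% of them higher, 127 to 852 lower and 99 to 161 of at least 2-fold, and kept 55.1% to 88.1% of the named genes. Over all named genes and alternatives, 1235 values kept their side of the threshold, 468 lost it, 2 gained it and 1 reversed: wago-4, not called with edgeR, was 0.0020 with the adjusted table. Depth limits genes under about 1 CPM.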
